A study of Homo sapiens with 7 samples.

Results

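In palbociclib-treated cells, 877 weak regions of Rb binding without a peak in untreated cells lay at promoters of a single protein-coding gene. They were among 6644 regions bound in both treated libraries. They came from CUT&RUN, in which a nuclease tethered by an antibody cuts out the DNA around a bound protein. The cells were ZR-75-1, an oestrogen receptor-positive breast cancer line. Parental cells had 2 libraries with the Rb antibody after 4 days in 500 nM palbociclib and 2 after 4 days in the solvent, DMSO. RB1 KO cells, in which the gene for Rb was disrupted by CRISPR–Cas9 in lines grown from single sorted cells, had 1 library with each treatment. As a negative control, 1 library of palbociclib-treated parental cells was made with an IgG2a antibody in place of the Rb antibody. The study's methods describe 1 experiment with a pair of biological replicates, so the spread between 2 libraries covers that experiment alone.

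A region was made by joining overlapping peaks of both palbociclib libraries, and it was called gained when no DMSO peak touched it. Of 5520 gained regions on chromosomes 1 to 22 and X, 4905 overlapped a promoter, taken as 2000 bp upstream to 500 bp downstream of a transcription start site (TSS), and 4061 of these touched the promoter of exactly 1 gene. The members were the 877 in which fold enrichment, the ratio of fragments at the peak summit to the local background, stayed below 6 in both treated libraries. A further 2209 regions reached 6 or more in both and are called strong here, and 975 fell below 6 in a single library. The members were therefore chosen on their peak calls and fold enrichment, and these measures are described without a test. They lay at 857 genes, which is 4.37% of 19626 protein-coding genes, while 34.0% of genes had any region bound in both palbociclib libraries.

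Rb binds E2F transcription factors at promoters and holds down genes needed for DNA synthesis and division. Cyclin-dependent kinases CDK4 and CDK6 phosphorylate Rb and release it from E2F, and palbociclib inhibits these kinases, so that hypophosphorylated Rb accumulates. Rb itself does not read a DNA sequence and reaches promoters through E2F and other partners. Promoters of cell cycle genes often carry E2F sites, the CCAAT box bound by NF-Y, or the cell cycle homology region (CHR) read by the DREAM and MuvB complexes.

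Short stretches of the members' promoters are shown here because weak and strong regions were compared by their E2F motifs and CCAAT boxes. The E2F motif was searched as any of TTTCCCGC, TTTGGCGC, TTTCGCGC and TTTGCCGC, within 100 bp of the summit and on both strands. In each sequence the capitals mark 1 match to the named motif, read on either strand, and the sequence runs 5′ to 3′ on the strand of its gene in hg38 (GRCh38). None of the windows overlaps an annotated exon. The first 4 hold an E2F motif. They lie on the plus strand at chr17:67825271-67825351 for BPTF, a subunit of the NURF chromatin remodeller, and on the minus strand at chr5:40756041-40756121 for TTC33, at chr21:45541912-45541992 for SLC19A1, the reduced folate carrier, and at chr11:59668462-59668542 for PATL1, a factor in mRNA decapping.
BPTF: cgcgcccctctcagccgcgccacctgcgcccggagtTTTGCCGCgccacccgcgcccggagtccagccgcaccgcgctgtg
TTC33: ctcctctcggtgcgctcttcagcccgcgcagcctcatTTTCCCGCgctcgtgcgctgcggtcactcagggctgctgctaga
SLC19A1: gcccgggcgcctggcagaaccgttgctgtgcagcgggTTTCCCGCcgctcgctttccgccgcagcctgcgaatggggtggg
PATL1: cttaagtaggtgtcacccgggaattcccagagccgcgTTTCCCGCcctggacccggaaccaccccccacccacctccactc

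A CCAAT box stood within 100 bp of the summit at CABLES2 and KLRG2, the members with the highest −log10 q among those whose CCAAT window is free of exons. Both windows are on the minus strand, at chr20:62407355-62407435 and chr7:139483746-139483826. The box lay 110 bp upstream of the nearest TSS at CABLES2 and 113 bp upstream at KLRG2.
CABLES2: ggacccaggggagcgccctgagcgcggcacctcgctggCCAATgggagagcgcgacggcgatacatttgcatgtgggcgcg
KLRG2: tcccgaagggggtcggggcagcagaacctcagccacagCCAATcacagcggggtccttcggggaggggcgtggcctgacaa

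Other sequences found near member summits are shown by 1 example each. ARID4A, which encodes a protein that binds Rb, carries the ETS sequence CCGGAAGT on the reverse strand at chr14:58297847-58297927. FAM117A has a cyclic AMP response element (CRE), TGACGTCA, on the minus strand at chr17:49764431-49764511. DDI2, an aspartic protease gene, has the GC box GGGCGG of SP and KLF factors on the plus strand at chr1:15617373-15617453, with a further match in lower case.
ARID4A: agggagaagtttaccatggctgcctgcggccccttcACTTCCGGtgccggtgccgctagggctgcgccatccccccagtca
FAM117A: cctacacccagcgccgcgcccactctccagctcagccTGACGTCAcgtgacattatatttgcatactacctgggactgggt
DDI2: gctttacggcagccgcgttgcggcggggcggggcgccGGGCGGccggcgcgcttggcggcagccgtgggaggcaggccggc

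Fold enrichment was close in both treated libraries. Members had to lie below 6 in both, so this closeness follows in part from the choice and is no measure of agreement. Its median over the 877 members was 4.61 in replicate 1 and 4.54 in replicate 2, a mean of 4.57 ± 0.0486 (SD, n = 2 libraries). It started at 2.64 in replicate 1 and at 2.36 in replicate 2. Averaged over both libraries, fold enrichment lay between 4 and 5 at 496 members (56.6%), between 5 and 6 at 228 (26.0%), between 3 and 4 at 149 (17.0%), and below 3 at 4 members (0.456%). Replicate 1 was the higher library at 441 members and replicate 2 at 436, and the median absolute difference between them was 0.20 on the log2 scale. In the higher of the 2 libraries, which set membership, fold enrichment reached 5 or more at 464 members (52.9%), with a median of 5.07.

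The limit cut through a continuous range. CABLES2 had a fold enrichment of 4.555 in replicate 1 and 5.998 in replicate 2, and CFD, which encodes complement factor D, had 3.669 and 5.995. Just outside, VBP1, a prefoldin subunit gene, had 6.006 and 4.407, and NDUFA12, a subunit of respiratory complex I, had 6.006 and 5.601. Each of these 4 regions passed or missed the limit by a margin far smaller than its own difference between libraries.

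**Figure D1:**
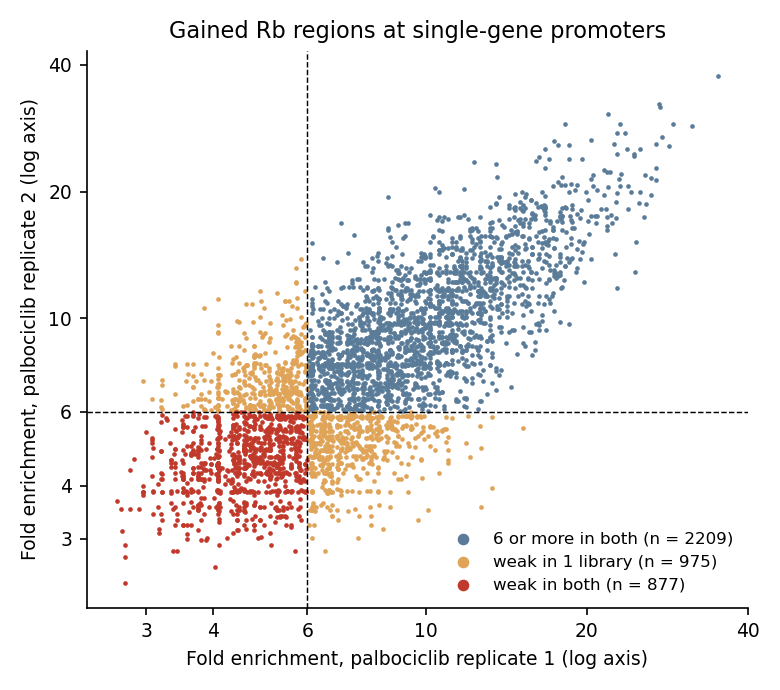
Fold enrichment in palbociclib replicate 1 (x axis) and replicate 2 (y axis) at the 4061 gained regions of single-gene promoters, both on log axes, with dashed lines at the limit of 6. Each point is a region. The 877 members fill the lower left corner and run without a gap into the 975 regions that were weak in a single library and the 2209 strong ones.

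Low fold enrichment at the members came with fewer fragments and with a higher background than at strong regions. The median number of fragments over the summit was 12 in replicate 1 and 13 in replicate 2, against 22 and 23 at strong regions. The median background was 1.94 and 2.08 fragments at the members and 1.4 and 1.41 at strong regions. Regions were also narrower, with a median width of 425 bp (range 168 to 1637) against 681 bp. These measures enter fold enrichment or peak calling, so the differences follow from how the members were chosen. Median −log10 q was 4.17 in each library, where the authors' cutoff of q = 0.05 corresponds to the lowest values of 1.32 and 1.3.

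A small set of members carried many fragments over a high background. In 33 members (3.76%), the fragment number was at or above the strong regions' median in both libraries, and their median background was 4.84 and 4.69. With fold enrichment held below 6, so many fragments require a high background, so that background follows from the choice. The 33 members are described here without a test. They included PPFIA1, which encodes the scaffold liprin-alpha-1, at chr11:70270038-70271159. It had 36 fragments over a background of 6.3 in replicate 1 and 44 over 6.77 in replicate 2, giving a fold enrichment of 5.07 and 5.79 and the highest mean −log10 q of all members (12.7 and 17.9). NDUFV1, a core subunit of respiratory complex I at chr11:67606754-67607159, had 31 and 37 fragments over 5.61 and 5.58, a fold enrichment of 4.84 and 5.78. Its region also overlapped an IgG2a peak. Such an overlap was found at 7 of the 33 members (21.2%) and at 15 of the other 844 (1.78%). Because Rb peaks were called against IgG, these shares are not independent of that choice. Of the 33 members, 9 lay on chromosome 1, which held 107 of all members, and 6 on chromosome 11, which held 40.

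The remaining members with the highest −log10 q had the same makeup. DDI2 had a fold enrichment of 5.78 and 5.47 from 30 and 33 fragments. ARF1, a GTPase of Golgi transport, had 5.99 and 4.61 from 34 and 30 fragments. VDAC3, a channel of the outer mitochondrial membrane, had 5.28 and 4.69 from 35 and 33. SREK1, a splicing regulator, had 4.79 and 5.62 from 27 and 31. In all 4 the background was above 4 fragments in both libraries. A fold enrichment below 6 with this many fragments again requires a raised background.

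At the other end, the 4 members with the lowest −log10 q were PPP1R15B, CREBBP, RAB35 and MBLAC1. PPP1R15B, a phosphatase subunit that reverses the stress block on translation, had a fold enrichment of 2.74 and 2.36. It held 19 and 21 fragments, more than most members, but over a background of 6.3 and 8.34. CREBBP, a histone acetyltransferase, had 3.21 and 3.33 from 10 and 11 fragments. RAB35, an endocytic GTPase, had 2.74 and 2.9 from 15 and 14, and MBLAC1 had 3.4 and 3.24 from 9 and 9. PPP1R15B and RAB35 were the members of this group with a background above 4 fragments in both libraries.

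**Figure D2:**
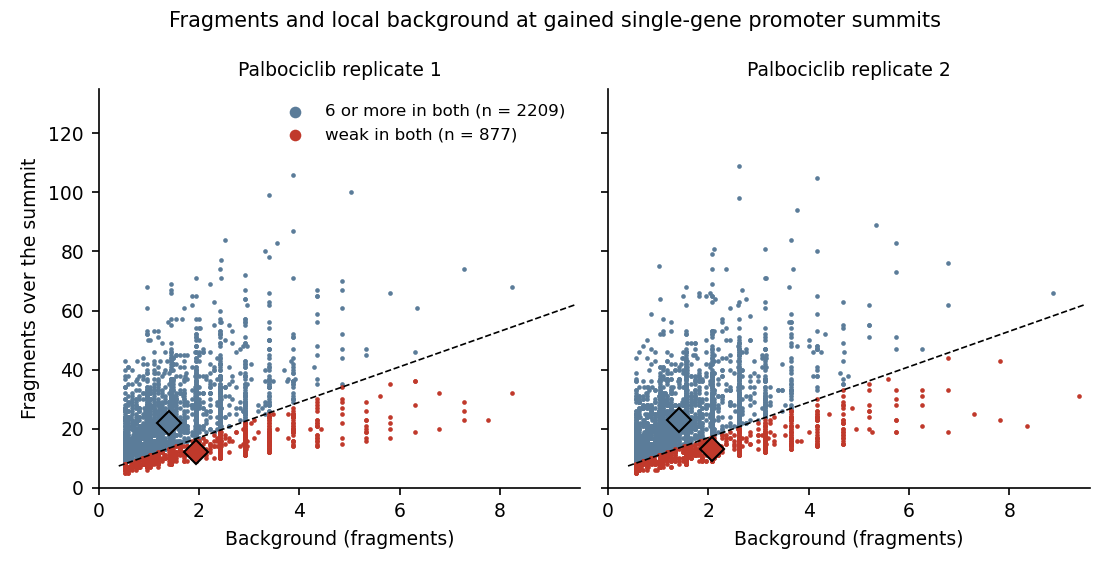
Fragments over the summit (y axis) against the local background in fragments (x axis) at members and at strong regions, for each palbociclib library. Diamonds are medians (12 and 13 fragments at members, 22 and 23 at strong regions) and the dashed line is a fold enrichment of 6. The members lie under the line in both panels, most with a background below 4 fragments and a few reaching beyond 8.

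The 3 widest members were ZIC2, GRB2 and RBPJ. ZIC2, a developmental zinc finger gene, held a region of 1637 bp at chr13:99980203-99981839 with a fold enrichment of 4.04 and 3.57 and 23 fragments in each library. GRB2, the adaptor that links growth factor receptors to RAS, had a region of 1495 bp with 5.63 and 4.67. Another gained region of GRB2, outside the members, had 5.58 and 7.04. RBPJ, the DNA-binding partner of NOTCH, had a region of 1453 bp with 5.45 and 5.19, and a second member of the same gene had 3.07 and 5.13. Across the set, 20 genes had a pair of members, and 68 of the 857 genes (7.93%) had some other region bound in both palbociclib libraries, a strong one at 31 genes. For most genes the weak region was the only one found in both treated libraries.

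To ask how well weak binding recurred, peaks were chosen in a single palbociclib library and looked up in the other, which took no part in the choice. Of 2169 weak gained single-gene promoter peaks in replicate 1, 1333 (61.5%, 95% exact interval 59.4 to 63.5) overlapped a peak in replicate 2. Of 2244 chosen in replicate 2, 1511 (67.3%, 65.4 to 69.3) overlapped a peak in replicate 1. Peaks with a fold enrichment of 6 or more were found again at 94.8% (2771 of 2922) and 96.5% (2637 of 2734). Weak peaks were thus found again less often than strong ones in both directions, with intervals that did not overlap. Weak peaks lie nearer to the caller's cutoff by choice, and a peak had to pass that cutoff to be found. The lower share is therefore not independent of the limit on fold enrichment.

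The limit applied only in the library that chose the peaks, so a higher median in the other follows from the choice and is no result. Peaks weak in replicate 1 had a median of 4.62 there and of 5.19 in replicate 2 where found, and 887 of the 1333 (66.5%) were again below 6. Peaks weak in replicate 2 had 4.68 there and 5.48 in replicate 1, and 893 of the 1511 (59.1%) were again below 6. The medians in the choosing library cover all chosen peaks, and those in the other cover only peaks that passed the caller's cutoff there. A fold enrichment below 6 in 1 library was thus followed by 6 or more in the other at a large share of the peaks found again.

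In DMSO, no list held a peak at any member, again by choice. The DMSO lists were shorter, with 922 and 753 peaks on these chromosomes against 8314 and 8171 with palbociclib, and their lowest −log10 p was higher, at 5.23 and 5.33 against 4.15 in both palbociclib lists. Because each list set its own cutoff, some members would not have been listed at the DMSO cutoff even with the signal seen under palbociclib. At 651 members (74.2%, 71.2 to 77.1), −log10 p reached 5.33 in both palbociclib libraries. At 206 members (23.5%) it did so in 1 library, and at 20 (2.28%) in neither. All 2209 strong regions reached it in both. The lists give no value where no peak was called, so how far binding differed between treatments at each member was not analysed here.

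Weak promoter peaks of untreated cells had high fold enrichment with palbociclib. The first DMSO list had 337 weak peaks at single-gene promoters (median fold enrichment 4.84) and the second had 250 (median 4.98). In the palbociclib lists the same sites had medians between 15.7 and 17.1, and at most 7 of them stayed below 6. Members had no DMSO peak by choice, so these sites are not set against them.

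No peak of either RB1 KO list overlapped a member, but these lists held only 4 and 5 peaks on chromosomes 1 to 22 and X, and they carry no measure of RB1 itself. The IgG2a list, with 1724 such peaks, overlapped 22 members (2.51%, 1.58 to 3.77) and 24 strong regions (1.09%). The difference was 1.42 percentage points (95% interval 0.426 to 2.73, counting error only). Rb peaks were called against IgG, so a limit on fold enrichment favours sites with more of that background. Neither this difference nor the background at the 22 members is therefore independent of how the members were chosen. At the 22 members the median background was 3.88 and 4.17, against 1.94 and 2.08 at the other 855, while the median fold enrichment was 4.65 and 4.34 against 4.61 and 4.54. The 4 with the highest −log10 q were NDUFV1, FIGNL1, ZRSR2 and ACBD6. FIGNL1, a recombination factor, had a fold enrichment of 5.92 and 5.22. ZRSR2, of the minor spliceosome, had 5.13 and 5.61, and ACBD6 had 5.07 and 4.0. The part of antibody background in these members was not tested.

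Member summits gathered at start sites, as strong ones did, but sat further downstream. A summit fell within 250 bp of a TSS of the gene at 720 members (82.1%, 79.4 to 84.6) and at 85.1% of strong regions, a difference of −3.01 percentage points (−6.04 to −0.157). It lay upstream of the TSS at 441 members (50.3%) and at 58.5% of strong regions, a difference of −8.25 points (−12.1 to −4.35). The median position was 1 bp upstream at members and 32 bp upstream at strong regions. Position was no part of the choice beyond the promoter itself. Measured from the canonical TSS alone, 624 members (71.2%) had a summit within 250 bp.

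**Figure D3:**
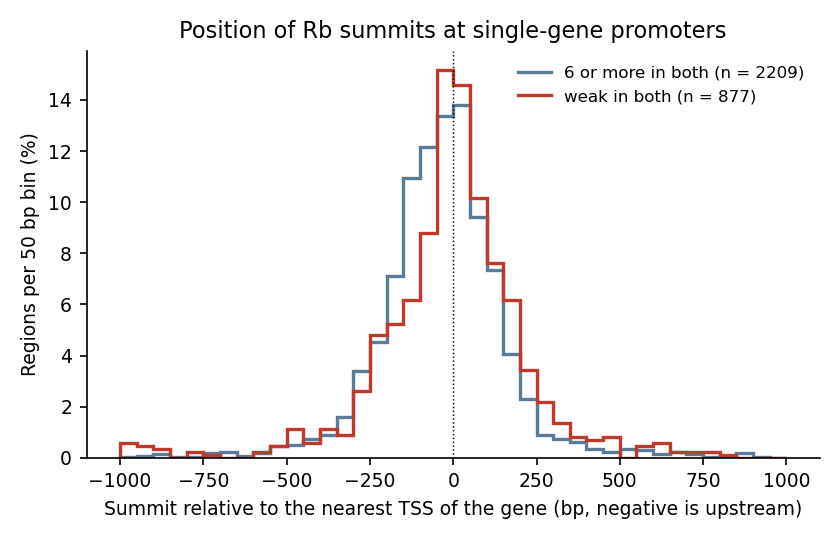
Share of regions (y axis, percent per 50 bp bin) by distance of the summit from the nearest TSS of the gene (x axis, bp, negative upstream) for the 877 members and the 2209 strong regions. Both peak at the TSS, and the strong regions have the broader upstream shoulder: 58.5% of their summits lay upstream against 50.3% of the members'.

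Summits of weak peaks were less sharply placed than those of strong ones. The summits of replicates 1 and 2 lay a median of 75 bp apart at members and 48 bp apart at strong regions. They were within 100 bp of each other at 536 members (61.1%) and at 76.0% of strong regions. At the regions weak in a single library they lay a median of 83 bp apart, with 57.5% within 100 bp. The looser placement was therefore not particular to the members. Members resembled strong regions in base composition, with a median GC content of 72.1% in the 201 bp around the summit against 71.6%, and a median ratio of observed to expected CpG of 0.893 against 0.894. A promoter of a long non-coding RNA also overlapped 239 members (27.3%) and 29.2% of strong regions, a difference of −1.9 points with an interval from −5.34 to 1.66.

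An E2F motif was rare at the members. It stood within 100 bp of the summit at 29 members (3.31%, 2.23 to 4.71), against 5.84% of strong regions and 11.2% of the 1029 promoter regions that had a DMSO peak. At the 975 regions weak in a single library the share was 3.49% (2.43 to 4.84), near that of the members. The difference from strong regions was −2.53 percentage points (−3.98 to −0.865). Windows of the same length at 19625 canonical TSSs held the motif at 2.83%, and the members' difference from them was 0.479 points with an interval from −0.545 to 1.9. The interval of the second difference includes 0, and that of the first does not.

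CCAAT boxes were less frequent at members than at strong regions and in canonical TSS windows. They stood near 126 member summits (14.4%, 12.1 to 16.9), 28.7% of strong summits and 33.4% of summits in regions with a DMSO peak. The difference from strong regions was −14.4 points (−17.3 to −11.3). Of the canonical TSS windows, 25.3% held a CCAAT box, which put members 10.9 points lower (difference −10.9, −13.2 to −8.39). Since summits of weak peaks were less sharply placed than those of strong ones and lay further downstream, the count was repeated in windows centred on the nearest TSS. There, 20.4% of members and 29.6% of strong regions held a CCAAT box, a difference of −9.15 points (−12.3 to −5.79). An E2F motif was held by 3.42% and 4.66%, and that difference of −1.24 points (−2.64 to 0.39) included 0, unlike the one around the summit. The canonical windows, with a CCAAT box at 25.3%, are centred on start sites too. The members' 20.4% (17.8 to 23.2) was nearer to that share, though still below it. The member windows used the nearest TSS of the gene, and the others only the canonical TSS. What part the placement of windows had in the 10.9 points was not tested. Members with a CCAAT box had their summit a median of 55 bp upstream of the TSS, and those without it 11 bp downstream.

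The RefSeq promoters (GRCh38.p14), from 250 bp before to 50 bp after each start, put weak regions below strong ones too. Of the 857 member genes, 701 matched an entry, and 224 of these (32.0%, 28.5 to 35.5) held a CCAAT box. The share was 43.3% at genes with a strong region and 48.8% at genes whose region had a DMSO peak. It was 33.9% at genes with no region bound in both palbociclib libraries and 36.5% over all protein-coding genes. An E2F motif stood in 4.56% of the member genes' promoters (3.14 to 6.38) and 6.49% of those with strong regions (5.4 to 7.73), intervals that overlap. It stood in 13.6% of those with a DMSO peak and 2.81% of those with no region. Over all protein-coding genes the share was 4.49%, near that of the member genes.

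Over all gained single-gene promoter regions, both shares were larger in classes of higher fold enrichment. In the lowest class, 153 regions with a mean fold enrichment below 4, an E2F motif stood at 1.31% and a CCAAT box at 10.5%. Between 5 and 6 the shares were 4.29% and 19.6% of 652 regions. In the highest class, 580 regions at 12 or more, they were 6.21% and 34.7%. The intervals of the lowest and the highest class overlapped for E2F and did not for CCAAT, and the classes on either side of 6 had overlapping intervals for both.

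**Figure D4:**
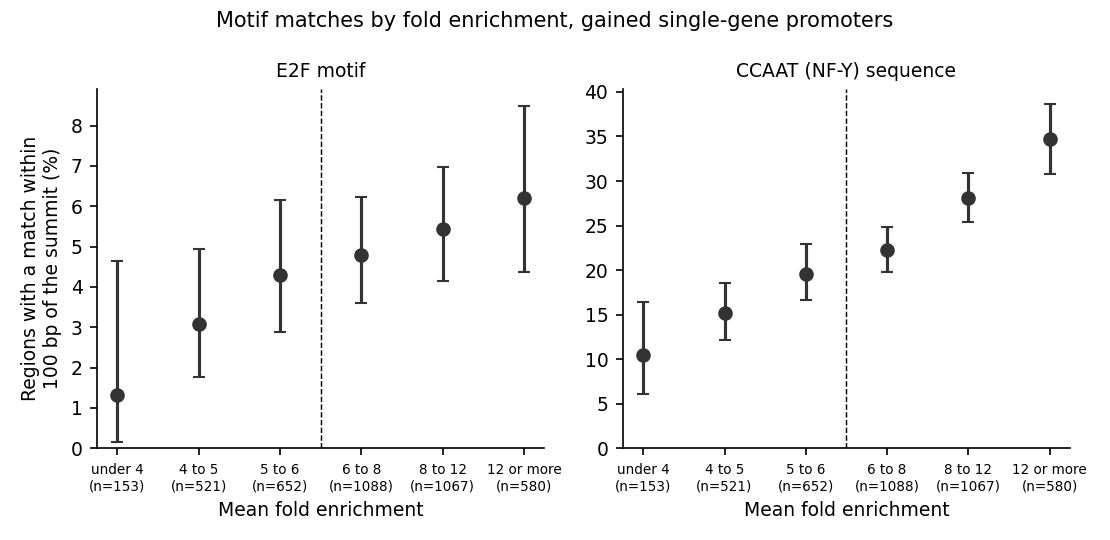
Share of gained single-gene promoter regions with an E2F motif (left) or a CCAAT box (right) within 100 bp of the summit (y axis, percent), by mean fold enrichment over both palbociclib libraries (x axis, with the number of regions). Bars are 95% exact intervals for counting error and the dashed line marks a mean of 6. The shares go from 1.31% to 6.21% for E2F and from 10.5% to 34.7% for CCAAT.

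The 4 members with the highest −log10 q among the 29 with an E2F motif were TFAP4, NME2, GPATCH8 and ASXL1. TFAP4, a helix-loop-helix factor, had a fold enrichment of 5.3 and 5.1 from 30 and 28 fragments. NME2, a nucleoside diphosphate kinase, had 5.13 and 5.82 from 29 and 20. GPATCH8 had 5.79 and 5.09 from 16 and 20, and ASXL1, a chromatin regulator of the Polycomb deubiquitinase, had 5.41 and 5.8 from 16 and 18. GCLM, of glutathione synthesis, was also among the 29 (5.3 and 4.29) and was picked after its values were seen. Members with the motif had a median fold enrichment of 5.21 and 4.91, those without it 4.6 and 4.54.

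Of the printed E2F examples, BPTF had a fold enrichment of 5.68 and 4.93, TTC33 had 5.79 and 4.44, SLC19A1 had 5.04 and 5.8, and PATL1 had 5.94 and 5.16 from only 8 and 7 fragments. The motif lay upstream of the nearest TSS in BPTF (192 bp), TTC33 (118 bp) and SLC19A1 (114 bp), and 535 bp downstream in PATL1. KLRG2, with its CCAAT box, had 5.89 and 5.82. FAM117A had 5.79 and 4.99.

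Of the other motifs, the GC box differed most from strong regions. It stood near 606 member summits (69.1%), 73.5% of strong summits (difference −4.42 points, −8.03 to −0.904) and 54.0% of canonical TSS windows (difference 15.1 points, 11.9 to 18.1). It can overlap an E2F motif on the opposite strand. The ETS sequence stood at 33 members (3.76%) and the CHR, searched as TTTGAA, at 31 (3.53%). NRF1 (CGCATGCG), YY1 (AAGATGGC) and AP-1 (TGAGTCA) matched 17, 14 and 14 members, CRE matched 9, and FOXA (TGTTTAC) matched 7. None of these 6, nor the ETS sequence, differed from strong regions beyond its interval. The oestrogen response element, GGTCA and TGACC with 3 bases between them, matched no member and no strong region, and 0.0357% of canonical TSS windows. At 210 members (23.9%) none of the 11 motifs matched, against 15.5% of strong regions, a difference of 8.46 points (5.33 to 11.7).

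The genes were spread over the genome and over many functions. Members per 100 protein-coding genes ran from 2.58 on chromosome X to 6.52 on chromosome 20. In 28 gene lists, the share of genes with a member was read against 4.37% for all protein-coding genes, with 95% exact intervals and no test. The interval lay above that value for 1 list, signalling through WNT, NOTCH, TGF-beta and Hippo (8 of 74 genes, 10.8%, 4.78 to 20.2), and below it for 1, the olfactory receptors (0 of 390). With 28 lists compared, the WNT list's interval, which starts just above 4.37%, is no finding about that list. The olfactory receptors, with an upper bound of 0.941%, had no region of any kind bound in both palbociclib libraries.

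**Figure D5:**
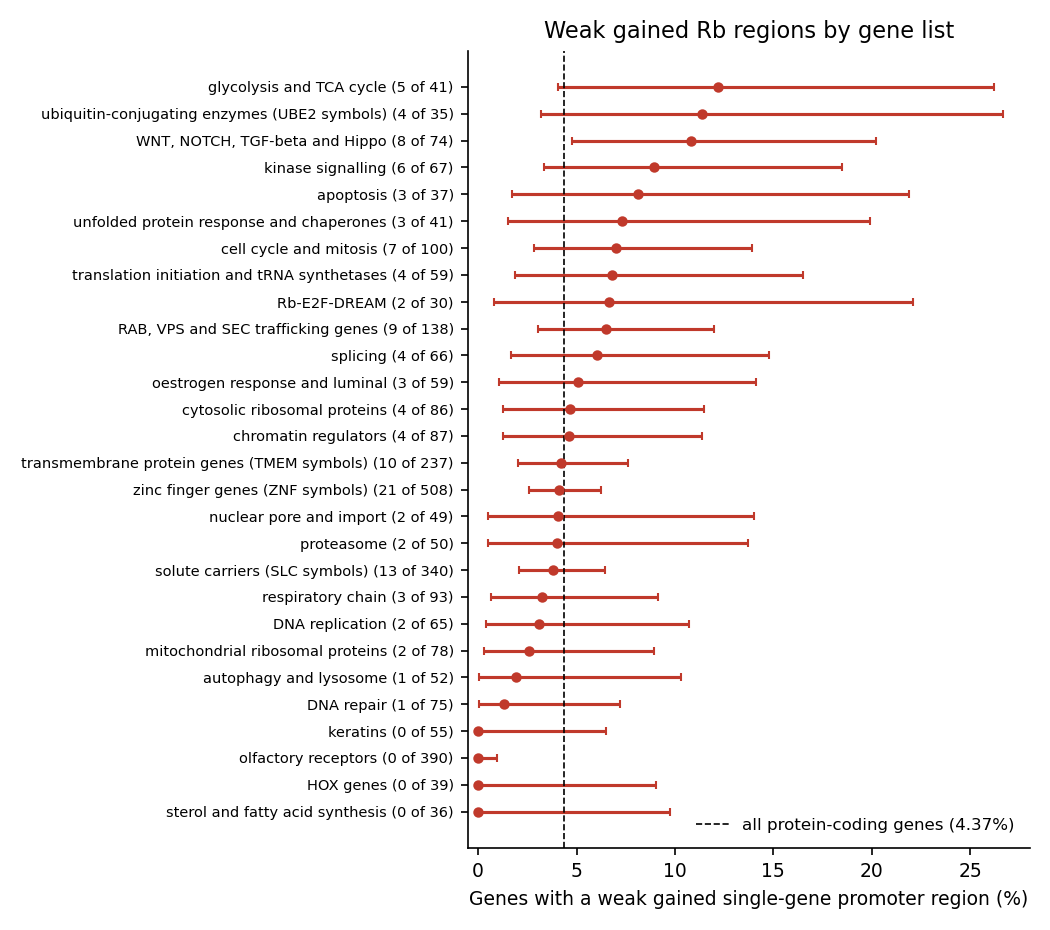
Share of genes with a weak gained single-gene promoter region (x axis, percent) in each of 28 gene lists (y axis, with counts), with 95% exact intervals. The dashed line is the 4.37% of all protein-coding genes. Most intervals cross the line, from glycolysis and TCA cycle (5 of 41) down to lists with no member, such as the keratins (0 of 55).

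Member genes were a minority of the classical Rb targets with a region, as they were over all genes with a region (857 of 6667). Of 65 DNA replication genes, 63 (96.9%) had a region bound in both palbociclib libraries, and 39 had a region with a DMSO peak. Member genes were 2 (3.08%, 0.375 to 10.7), an interval that includes the 4.37% of all genes. The 2 were POLE2 and POLE4, subunits of DNA polymerase epsilon. POLE2 had a fold enrichment of 4.38 and 5.51 and an E2F motif at the summit, and POLE4 had 5.26 and 5.46. Of 75 DNA repair genes, FANCE of the Fanconi anaemia core complex was the single member (4.72 and 4.28), and 31 had a region with a DMSO peak. The share of 1.33% had an interval of 0.0338 to 7.21. In the list of Rb, E2F and DREAM genes, 2 of 30 held a member (6.67%, 0.818 to 22.1). Both of these intervals also include 4.37%. ARID4A had 5.47 and 3.23, from 23 and 14 fragments, and HDAC2, a histone deacetylase that works with Rb, had 5.08 and 4.9 from 9 in each library.

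Of 100 cell cycle and mitosis genes, 7 were members (7%, 2.86 to 13.9), 29 had a strong region and 24 a region with a DMSO peak. CCNB1, which encodes the mitotic cyclin B1, had a fold enrichment of 5.87 and 5.33 from 17 and 21 fragments, and its region overlapped an IgG2a peak. CCNB2, the other B-type cyclin here, had 4.09 and 4.22 from 13 and 12, with a summit on the TSS and both a CHR and a CCAAT box beside it. BIRC5, which encodes survivin, had 5.05 and 4.55 from 16 and 15, with a CHR. ECT2, a gene of cytokinesis, had 4.89 and 4.54, with a CHR and a CCAAT box.

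The remaining 3 of these genes were less even between libraries. CENPE, a kinetochore motor, had a fold enrichment of 5.27 and 4.3 from 7 and 6 fragments. UBE2S, which extends ubiquitin chains for the anaphase-promoting complex, had 3.67 and 5.85, and ANAPC1, the large scaffold of that complex, had 4.48 and 3.51. None of the 7 had an E2F motif near the summit, where 3.31% of all members had one, and 4 had a CHR, where 3.53% of all members had one. With 7 genes, the absence of an E2F motif is no difference from the other members. The CHR count rests on the same 7 genes and was not set against cell cycle genes bound otherwise.

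Oestrogen response and luminal genes held members about as often as all genes, at 3 of 59 (5.08%, 1.06 to 14.1). ABCA3, a lipid transporter, had a fold enrichment of 5.84 and 4.09 from 19 and 18 fragments, with a summit 773 bp downstream of the TSS. SLC7A5, the large neutral amino acid transporter, had 5.48 and 5.13 from 15 and 13, and ELF3, an epithelial ETS factor, had 3.79 and 4.3 from 14 and 17. A region of any kind was found at 37.3% of these genes, near the 34.0% of all genes.

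Of 67 kinase signalling genes, 6 were members (8.96%), with an interval of 3.36 to 18.5 that includes the 4.37% of all genes. MAPK3, a kinase gene of the RAS pathway, had a fold enrichment of 5.24 and 5.16 from 22 and 23 fragments, and GRB2 is described above. In the WNT, NOTCH, TGF-beta and Hippo list, the members included RBPJ, the WNT co-receptor LRP6 (4.09 and 4.54) and DVL1, which relays the WNT signal (4.08 and 5.07). Over the 9 members at the 8 genes of this list, the median fold enrichment was 4.06 and 4.54, and 4 reached the DMSO cutoff in both palbociclib libraries.

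Of 41 glycolysis and TCA cycle genes, 5 were members (12.2%, 4.08 to 26.2). IDH3A, the catalytic subunit of the mitochondrial isocitrate dehydrogenase, had 5.88 and 4.16. HK1, a hexokinase, had 5.82 and 4.09, and SUCLA2, of succinyl-CoA synthetase, had 5.11 and 4.16. All 5 reached the DMSO cutoff in both libraries. Of 35 ubiquitin-conjugating enzyme genes, 4 were members (11.4%, 3.2 to 26.7). Among them UBE2K had 5.11 and 4.97, UBE2S is given above, and UBE2D2 had 3.74 and 4.22, but only 1 of the 4 reached the DMSO cutoff in both.

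Housekeeping groups lay near the share of all genes. Members included 4 of 86 cytosolic ribosomal protein genes (4.65%), among them RPS21 (4.35 and 4.77), RPS15A (4.33 and 4.12) and RPS3 (5.94 and 4.52, from 8 and 6 fragments). The mitochondrial ribosome had 2 of 78, MRPL38 (4.1 and 4.36) and MRPS23 (3.58 and 3.88). The respiratory chain had 3 of 93, with NDUFAB1 (5.3 and 5.76) and ATP5MJ (3.74 and 4.16) beside NDUFV1. The proteasome had 2 of 50, the lid subunit PSMD12 (3.94 and 4.67) and PSMD8 (5.33 and 4.4). Splicing had 4 of 66, with SF3B4 of the U2 particle (5.12 and 5.85) and PRPF8, the core of the spliceosome (4.77 and 4.22), and the nuclear pore had 2 of 49, NUP133 (4.74 and 4.96) and RANGAP1 (3.96 and 4.52).

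Translation, stress and death genes were represented by a few members each. Of 59 genes of translation initiation and tRNA charging, 4 were members, among them EIF3J (4.97 and 4.85) and the glutamyl-prolyl-tRNA synthetase EPRS1 (4.72 and 3.34, overlapping an IgG2a peak). Of 41 genes of the unfolded protein response, 3 were members, namely EDEM1 of protein degradation at the endoplasmic reticulum (4.35 and 3.87), the stress factor ATF4 (4.42 and 4.3, from 6 fragments in each library) and PPP1R15B. Of 37 apoptosis genes, 3 were members, including the receptor TNFRSF1A (4.35 and 5.49) and the pore-forming BAX (4.57 and 4.41). Autophagy and the lysosome had 1 of 52, ATG101 (5.33 and 3.37), and sterol and fatty acid synthesis had 0 of 36.

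Chromatin regulators had 4 members among 87 genes. ASXL1 and the histone demethylase gene KDM6A (3.51 and 5.51) both had an E2F motif at the summit. CHD8, a remodeller, had 4.57 and 4.83, with a CCAAT box, and another gained region of CHD8, outside the members, had 5.71 and 8.97. CREBBP was among the lowest of all members.

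The large families named by symbol also sat near the background. Zinc finger genes held members at 21 of 508 (4.13%), of which ZNF574 (5.79 and 5.38), ZNF496 (4.79 and 4.82) and ZNF692 (5.33 and 4.84) had the highest −log10 q. Solute carriers had 13 of 340 (3.82%), led by the carnitine transporter SLC22A5 (5.56 and 5.7) and the phosphate transporter SLC20A1 (5.12 and 4.91). Genes with TMEM symbols had 10 of 237 (4.22%), led by TMEM9 (5.63 and 5.69) and TMEM134 (4.48 and 4.57). Trafficking genes had 9 of 138 (6.52%), such as RAB21 (4.67 and 5.55). The HOX genes and the keratins had 0 of 39 and 0 of 55, and any region bound in both palbociclib libraries was found at 1 HOX gene and no keratin.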

How the data were processed

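Peaks of 7 CUT&RUN libraries were analysed. According to the study's methods, reads were trimmed with BBDuk, aligned to hg38 with Bowtie2 2.3.4.1 and cleared of blacklisted and mitochondrial reads, with duplicates kept. The authors called peaks per library with MACS2 2.2.7.1 against IgG, at q = 0.05. The control for the IgG2a list is not given in the sources used here. The deposited fold enrichment is a ratio of fragment pileup plus 1 to background plus 1 at the summit. The deposited −log10 p and −log10 q and the deposited score (from −log10 q) are MACS2's. Pileup and background were solved from the fold and −log10 p (largest misfit 5.5e-05 at members), so depth was not read directly; the background floors were 0.571 and 0.465 (DMSO) and 0.516 and 0.549 (palbociclib).

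Peaks sharing 1 bp were joined, and promoters came from GENCODE 44. A region's summit was taken from the library with the higher −log10 q. Shares carry 95% Clopper-Pearson intervals and differences Newcombe intervals, for counting error only. Regions are not replicates, and no test was run. Named genes were those with the highest and lowest mean −log10 q, the widest, those next to the limit, those with motifs or control peaks, and members of the gene lists, which were written from general knowledge. The members and lists were chosen with earlier results of these data known. Analyses used Python 3.11.15, pandas 2.3.3, SciPy 1.17.1 and pysam 0.24.0, and the scripts were checked on simulated peaks. Alternatives varied the limit, promoter, gene types, overlap, cutoff, window, summit and libraries.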

Additional observations from a re-analysis of the deposited data

How the results depend on the processing

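Of 60 comparisons with an alternative setting, 45 stayed within the error of the value reported, or within 1.5 times for the number of members, and 15 moved. A limit of 5 in place of 6 gave 413 members, an E2F share of 1.45% and a share of weak peaks found in the other replicate of 60.0% (64.4% as the mean of both directions with the limit of 6). A limit of 7 gave 1462 members and 70.0% found. Requiring 50% reciprocal overlap gave 45.4% found and 85.7% of summits within 250 bp of a TSS, and promoters from −1000 to +100 bp gave 84.6%. With 50 bp to each side of the summit, 1.6% of members held an E2F motif and 7.18% a CCAAT box. In windows centred on the nearest TSS, chosen after seeing the data as were all alternatives for CCAAT, 20.4% held a CCAAT box. Leaving out 1 library gave 879 to 2244 members, 2.77% to 3.88% with an E2F motif, 14.3% to 16.8% with CCAAT, 1.65% to 2.5% with an IgG2a peak and 78.1% to 82.1% near a TSS. The number rose to 2244 without palbociclib replicate 1 and to 2169 without replicate 2, since a peak then had to be found in 1 list only. No paired analysis was possible because the results come from no test. With a median of 12 and 13 fragments per summit, counting error alone is large at each member.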
